A study of Rattus norvegicus with 18 samples.

Results

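The immediate early response genes described here are 9 protein-coding genes measured in rat lung: *Fos*, *Fosb*, *Jun*, *Junb*, *Atf3*, *Egr1*, *Nr4a1*, *Dusp1* and *Zfp36*. They were chosen by name, from a list of 10 symbols, and each was taken as the row of the deposited tables that carried exactly that symbol. The 9 make up a small set among the 22081 genes of the tables, and *Ier2*, the remaining symbol, is not analysed here. Immediate early genes are switched on within minutes of a growth factor, a cytokine, injury or stress, because the transcription factors that drive them are already present in the resting cell and need only be phosphorylated. Many of their mRNAs are short-lived, so that a steady-state level in a tissue is a snapshot of recent signalling. In lung they are known to respond to stretch, particles, oxidants and the handling of the tissue itself.

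The lungs came from male F344/DuCrlCrlj rats that received either vehicle or multi-walled carbon nanotubes (MWCNT, here MWNT-7) by intratracheal instillation from 9 weeks of age. The dose was 0.5 mg/kg body weight every 4 weeks, and lungs were taken after 0.5, 1 and 2 years (Year 0.5, 1 and 2), each time from 3 controls and 3 rats given MWCNT. The vehicle, saline with a little Tween 80, was given to all 18 rats, so that the controls carry the same instillations and ageing as the treated rats. RNA was taken from a tumour-free piece of the accessory lobe and sequenced as a bulk sample, in which fewer cells of one type and less RNA per cell cannot be told apart.

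Each library held between 13297643 and 21130757 counts over genes. The tissue label was checked against markers. Alveolar type 2 markers summed to 28150 to 61940 TPM and club and ciliated markers to 10480 to 32840 TPM (TPM, a level corrected for gene length and library size), while genes of heart muscle summed to 15.8 to 675 TPM. The trimmed-mean (TMM) factors were 1.03 to 1.08 for controls and 0.925 to 0.972 for treated rats, so a level per library size alone reads slightly lower after MWCNT. Without these factors the median log2 fold change over all genes tested was -0.12 at Year 0.5, -0.13 at Year 1 and -0.18 at Year 2. Values by rat are therefore given below as TMM-normalised CPM, the counts scaled to a common library size, and TPM, which lacks these factors, is used for levels compared between genes, for the *Fos*-to-*Jun* ratio and for summed levels of marker lists.

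Control regions of 6 of the 9 genes were matched by symbol in RefSeq (build GRCr8, not the build of the deposited tables), and the 250 bases before the annotated start were searched on both strands. The motifs were the cyclic AMP response element (CRE, TGACGTCA), its core (TGACG), the AP-1 site (TGANTCA), the site of the EGR factors (GCGNGGGCG), the TATA box (TATAAA) and the CArG box bound by serum response factor. A whole CRE holds the core on both strands. The 4 regions below are shown for 2 pairs of genes whose correlation between rats is given further on. For Pearson's r, *Dusp1* with *Zfp36* had an adjusted p below 0.05 in 16 of 18 fits that left out 1 rat, and *Egr1* with *Junb* in 3 of 18. Capitals mark every motif found on either strand. They lie at chr18:26736828-26737077 (plus strand) for *Egr1*, chr19:40080876-40081125 (plus strand) for *Junb*, chr10:17184603-17184852 (plus strand) for *Dusp1* and chr1:92799109-92799358 (minus strand) for *Zfp36*.
Egr1: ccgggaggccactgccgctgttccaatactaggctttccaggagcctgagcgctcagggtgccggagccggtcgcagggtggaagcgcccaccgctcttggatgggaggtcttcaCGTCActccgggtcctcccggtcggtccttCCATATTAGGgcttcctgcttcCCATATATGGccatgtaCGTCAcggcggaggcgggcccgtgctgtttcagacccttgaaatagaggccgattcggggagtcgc
Junb: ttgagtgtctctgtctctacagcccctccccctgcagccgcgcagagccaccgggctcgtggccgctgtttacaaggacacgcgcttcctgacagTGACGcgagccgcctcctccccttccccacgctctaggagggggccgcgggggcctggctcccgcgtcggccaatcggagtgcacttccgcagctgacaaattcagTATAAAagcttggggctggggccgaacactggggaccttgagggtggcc
Dusp1: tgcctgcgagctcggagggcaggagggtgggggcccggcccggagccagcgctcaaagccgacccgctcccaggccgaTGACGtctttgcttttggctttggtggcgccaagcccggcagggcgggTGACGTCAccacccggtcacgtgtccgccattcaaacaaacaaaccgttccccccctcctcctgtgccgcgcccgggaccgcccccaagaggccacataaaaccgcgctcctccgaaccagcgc
Zfp36: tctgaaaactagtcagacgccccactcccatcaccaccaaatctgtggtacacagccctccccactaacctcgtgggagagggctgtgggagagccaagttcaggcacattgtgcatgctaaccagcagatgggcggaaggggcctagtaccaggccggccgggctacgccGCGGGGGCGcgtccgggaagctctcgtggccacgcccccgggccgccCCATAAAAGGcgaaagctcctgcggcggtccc
*Egr1* held 2 CArG boxes and 2 CRE cores within 135 bases of the start, and *Zfp36* held 1 CArG box and 1 EGR site. *Dusp1* was the only one of the 6 with a whole CRE, 117 to 124 bases before the start. A CArG box was found in 2 of the 6 regions and in 1.5% of all 33469 regions of that length. The whole CRE was found in 1.59% of all regions, and a CRE core in 4 of the 6 and in 18.2% of all. An EGR site was found in 2 of the 6 and in 4.29% of all, and a TATA box in 2 of the 6 and in 12.9% of all. No AP-1 site was found in the 6, against 6.34% of all regions. A match is only a run of letters in these windows.

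In the files, which use the build Rnor_6.0, *Fosb* and *Zfp36* lie on chromosome 1 and the other genes each on a chromosome of their own. *Dusp1*, a phosphatase that switches off MAP kinases, was the most abundant of the 9 in every group, with a mean TPM from 348 ± 101 (SD, n = 3) in the Year 1 treated rats to 975 ± 56.1 (SD, n = 3) in the Year 0.5 controls. *Zfp36*, which encodes the mRNA-destabilising protein tristetraprolin, came second in every group, at 260 to 467 TPM, although at Year 2 in treated rats its 262 ± 34.0 TPM (SD, n = 3) and the 247 ± 28.4 TPM of *Junb* lay within their spread. Next came *Jun* and then *Junb* in the 3 control groups, and the order of this pair was the other way round in the 3 treated groups. *Fosb* was the least abundant throughout, at 3.44 to 11.6 TPM. In the Year 1 treated rats *Fos*, *Atf3*, *Nr4a1* and *Egr1* lay between 30.3 and 40.3 TPM, so their order there was within the spread between rats.

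The members differed widely in how steady they were from rat to rat within a group. The coefficient of variation of normalised CPM had a median over the 6 groups of 10.5% for *Dusp1*, 12.6% for *Jun*, 13.2% for *Junb* and 14.8% for *Zfp36*. It was 26.4% for *Nr4a1*, 26.7% for *Fos* and for *Atf3*, 29.8% for *Egr1* and 37.8% for *Fosb*.

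**Figure D1:**
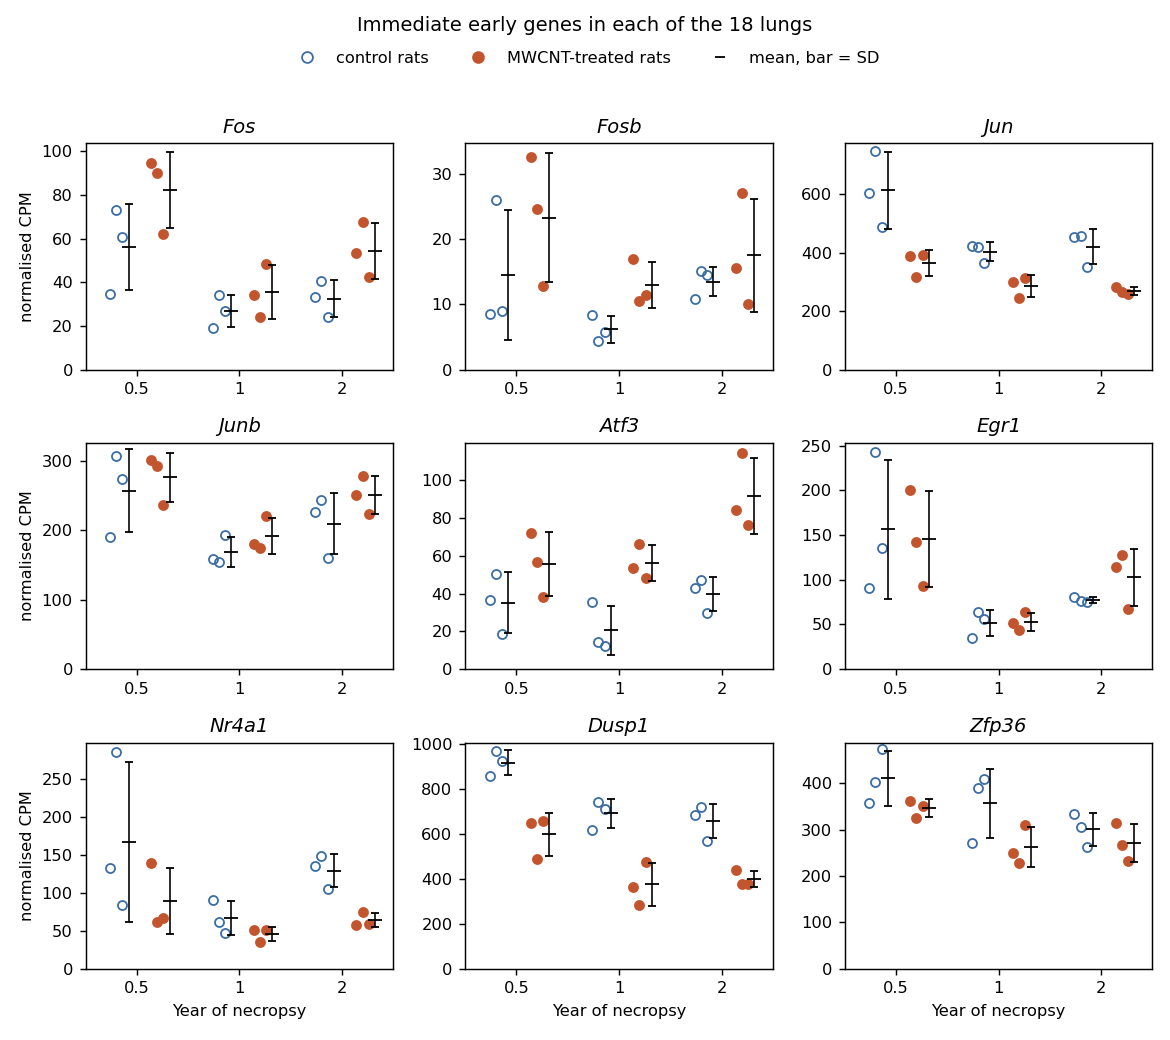
Normalised CPM (library-scaled counts with TMM factors) of each gene in each of the 18 rats, by year of necropsy, with open circles for control rats, filled circles for MWCNT-treated rats and the mean ± SD of each group of 3 beside them. *Jun* and *Dusp1* lay lower in all treated rats than in the control rats of the same year, *Atf3* lay higher at Year 1 and Year 2, and most genes stood highest at Year 0.5.

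The first comparison asked how the lungs of MWCNT-treated rats differed from those of control rats of the same year. *Jun* and *Dusp1* were lower after MWCNT at all 3 times, *Atf3* was higher at Year 1 and Year 2, *Fosb* was higher at Year 1, and *Fos* was higher and *Nr4a1* lower at Year 2. *Junb*, *Egr1* and *Zfp36* passed the test at no time. The 9 genes thus split in direction, and their median log2 fold change was -0.10, 0.04 and 0.25 at the 3 times, beside -0.02, 0.00 and -0.01 over all genes tested. With edgeR's quasi-likelihood test and a Benjamini-Hochberg false discovery rate (FDR) below 0.05, 2, 4 and 5 of the 9 passed at Years 0.5, 1 and 2, where 38.8%, 41.2% and 49.2% of all genes passed. Requiring also a change over 2-fold left 0, 2 and 2 of the 9 in edgeR, against 9.1%, 10.2% and 16.4% of all genes. At Year 0.5, where that count was 0, 3 of the 9 had an unadjusted p below 0.05 in edgeR, and DESeq2 also called 0 with the fold limit. Without that limit DESeq2 called 2, 6 and 5 of the 9 at the 3 times. Over all genes it called 5280 of 14315, 5692 of 14345 and 6612 of 14361. The edgeR shares are near the background, while the DESeq2 share at Year 1 is above it. With only 9 genes the count of members that moved is not read as a result about the group, and the values of each gene carry the description.

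**Figure D2:**
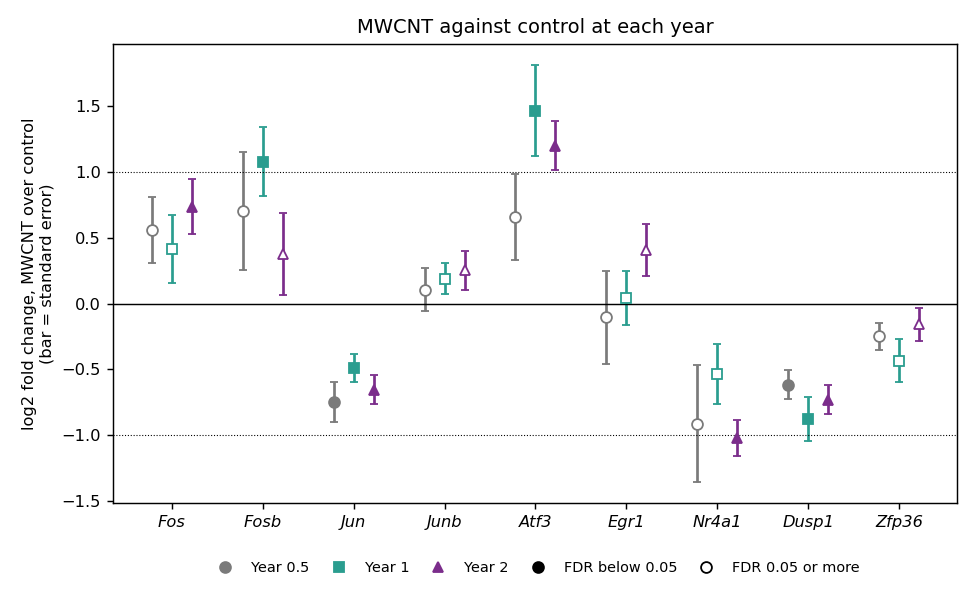
Log2 fold change of MWCNT-treated over control rats for each gene at Years 0.5, 1 and 2, from edgeR with 3 rats a group, where bars are standard errors, filled symbols have an FDR below 0.05 and dotted lines mark a 2-fold change. *Jun* and *Dusp1* sit below 0 at all 3 times, while *Atf3* reaches 1.46 at Year 1 and 1.20 at Year 2.

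Among the Fos proteins, which bind DNA only as dimers with a Jun partner, *Fos* (ENSRNOG00000008015, chr6:109300433-109303299, plus strand) read 34.6, 73.2 and 60.6 CPM in the Year 0.5 control rats and 94.4, 89.9 and 62.3 in the treated rats. At Year 1 the controls read 19.2, 34.1 and 26.9 and the treated rats 34.3, 24.0 and 48.4, and at Year 2 the controls read 33.3, 40.5 and 23.9 and the treated rats 53.5, 67.7 and 42.2. The groups overlapped at Year 0.5 and Year 1, and at Year 2 all treated rats lay above all controls. The log2 fold change of *Fos* was 0.74 ± 0.21 (SE) at Year 2 (edgeR, FDR = 0.0158), and it was 0.56 and 0.41 with an FDR of 0.11 and 0.226 at Year 0.5 and Year 1. Without treated replicate 2 the Year 2 value was 0.55 (edgeR, FDR = 0.0583). *Fosb* (ENSRNOG00000046667, chr1:80214494-80221710, minus strand), the close relative of *Fos*, read 8.41, 4.37 and 5.78 CPM in the Year 1 controls and 17.0, 10.4 and 11.4 in the Year 1 treated rats, with no overlap. Its log2 fold change at Year 1 was 1.08 ± 0.26 (SE) by edgeR (FDR = 0.0104), and in a model of all 18 rats its FDR was 0.0665. At Year 0.5 the *Fosb* groups overlapped, since control replicate 2 read 25.9 CPM beside 8.51 and 8.92 in the other controls. Without that control rat the Year 0.5 value was 1.42 for *Fosb* (edgeR, FDR = 0.0171), 0.79 for *Fos* (FDR = 0.0438) and 1.00 for *Atf3* (FDR = 0.046). At Year 2 the treated rats alone spanned 9.97 to 27.0 CPM, around controls of 10.9 to 15.1, and the log2 fold change was 0.37 ± 0.31 (SE).

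*Jun* (ENSRNOG00000026293, chr5:114011189-114014277, minus strand) encodes the core partner of the AP-1 dimer. It read 606, 749 and 487 CPM in the Year 0.5 controls and 388, 315 and 393 in the treated rats. At Year 1 it read 424, 421 and 366 against 300, 244 and 315, and at Year 2 it read 455, 456 and 351 against 283, 266 and 257. No treated rat reached the lowest control of its year at any of the 3 times. The log2 fold change was -0.75 ± 0.15 (SE), -0.49 ± 0.11 and -0.65 ± 0.11, with an edgeR FDR of 0.00428, 0.00672 and 0.000978, so that the treated lungs held 0.595, 0.712 and 0.636 times the control level. *Junb* (ENSRNOG00000042838, chr19:26092974-26094756, minus strand), which can take the place of *Jun* in the dimer, read 154 to 306 CPM in the 9 control rats and 174 to 301 CPM in the 9 treated rats. Its groups overlapped at every time, and its log2 fold changes of 0.11, 0.19 and 0.25 had standard errors of 0.16, 0.12 and 0.15.

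Because *Fos* and *Jun* come from the same library, their ratio needs no factor between libraries. This pair was chosen after its values were seen. The *Fos*-to-*Jun* ratio of TPM was 0.111, 0.19 and 0.242 in the Year 0.5 controls and 0.473, 0.554 and 0.308 in the treated rats. It was 0.0881, 0.157 and 0.143 against 0.222, 0.191 and 0.299 at Year 1, and 0.142, 0.173 and 0.132 against 0.368, 0.495 and 0.319 at Year 2. All treated rats lay above all controls of their year, which also held in all 3 years for the ratio to *Jun* of 51.9% of the genes tested. The shift in the ratio is thus common to a large share of genes and is not particular to *Fos*.

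*Atf3* (ENSRNOG00000003745, chr13:109817728-109849632, minus strand), a stress-induced member of the ATF and CREB family, read 36.7, 50.5 and 18.7 CPM in the Year 0.5 controls and 72.1, 56.9 and 38.0 in the treated rats, with overlap. At Year 1 the controls read 35.5, 14.3 and 12.2 and the treated rats 53.6, 66.6 and 48.1. At Year 2 the controls read 42.9, 47.0 and 29.7 and the treated rats 84.6, 115 and 76.5. From Year 1 on, every treated rat lay above every control. The log2 fold change was 0.66 ± 0.33 (SE) at Year 0.5, 1.46 ± 0.35 at Year 1 and 1.20 ± 0.19 at Year 2, with an edgeR FDR of 0.141, 0.00945 and 0.000724. The Year 1 value was 2.10 without control replicate 1, which at 35.5 CPM stood apart from the other controls of that year.

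*Egr1* (ENSRNOG00000019422, chr18:27657628-27661429, plus strand) encodes a zinc finger factor induced through serum response factor. It read 90.6, 243 and 136 CPM in the Year 0.5 controls and 200.4, 142 and 93.4 in the treated rats, and the groups overlapped at all 3 times. Its log2 fold changes were -0.10 ± 0.35 (SE), 0.04 ± 0.21 and 0.40 ± 0.20, and the Year 1 value was -0.09 when scaled by library size alone. At Year 2 the 3 controls lay close together at 81.0, 75.9 and 75.4 CPM, while the treated rats read 114, 128 and 66.8, and without treated replicate 3 the value was 0.64 (edgeR, FDR = 0.000434). *Nr4a1* (ENSRNOG00000007607, chr7:142905758-142920216, plus strand) encodes the orphan nuclear receptor Nur77. It read 135, 149 and 105 CPM in the Year 2 controls and 58.1, 74.7 and 59.7 in the treated rats, with no overlap. The log2 fold change there was -1.02 ± 0.14 (SE) by edgeR (FDR = 0.000302), that is 0.493 times the control level. At Year 1 *Nr4a1* read 91.2, 61.8 and 47.4 against 50.8, 35.6 and 51.2, and at Year 0.5 it read 133, 286 and 83.7 against 139.6, 61.2 and 67.0. Those groups overlapped, with log2 fold changes of -0.53 ± 0.23 (SE) and -0.91 ± 0.44 (edgeR, FDR = 0.088 and 0.135). DESeq2 gave the Year 1 value an FDR of 0.024. The Year 0.5 value was -1.23 without control replicate 3 (edgeR, FDR = 0.038), -1.38 without treated replicate 1 (FDR = 0.0452) and -0.29 without control replicate 2 (FDR = 0.565).

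The last 2 members act as brakes. *Dusp1* (ENSRNOG00000003977, chr10:16970626-16973418, plus strand) read 857, 967 and 922 CPM in the Year 0.5 controls and 648, 489 and 656 in the treated rats. At Year 1 it read 619, 743 and 712 against 365, 283 and 477, and at Year 2 it read 682, 718 and 570.1 against 439.6, 375 and 379. The treated rats lay wholly below the controls at every time. The log2 fold change was -0.62 ± 0.11 (SE), -0.88 ± 0.17 and -0.73 ± 0.11, with an edgeR FDR of 0.00276, 0.00331 and 0.000484. *Zfp36* (ENSRNOG00000058388, chr1:85380088-85382569, plus strand) read 357, 401 and 474 CPM against 362, 325 and 351 at Year 0.5 and 271, 389 and 409 against 250.2, 228 and 310.4 at Year 1, with overlap at both. At Year 2 it read 334, 305 and 263 against 313, 266 and 233, and these groups overlapped as well. Its log2 fold changes were -0.25 ± 0.10 (SE), -0.43 ± 0.16 and -0.16 ± 0.12, with an edgeR FDR of 0.0851, 0.0603 and 0.321. At Year 1 this gene passed with DESeq2 (FDR = 0.0145) and in the model of 18 rats (edgeR, FDR = 0.0289), and with scaling by library size alone its FDR was 0.0251, 0.0227 and 0.0374 at the 3 times.

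Counted by rats rather than by a model, 2 of the 9 genes separated the groups of 3 at Year 0.5, 4 at Year 1 and 5 at Year 2. Such separation on the normalised CPM scale was seen for 51%, 54% and 58.8% of all genes. At Year 0.5 both separated genes were lower in the treated rats, at Year 1 the split was 2 higher and 2 lower, and at Year 2 it was 2 higher and 3 lower.

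Markers of several cell types moved with the same comparison. All 8 endothelial markers were lower at Year 0.5 and 7 of 8 at Year 1 and Year 2 by edgeR at FDR below 0.05, with a median log2 fold change of -0.83, -0.73 and -1.24. Their summed level was 2987 to 3905 TPM in the control rats and 1007 to 2106 TPM in the treated rats, and no endothelial marker was at 0 in any rat. All 9 macrophage markers were higher at all 3 times, with a median of 1.83, 1.55 and 2.44 and a summed level of 397 to 528 TPM against 1141 to 1993 TPM. *Marco*, one of these 9, was at 0 in 3 of the 18 rats. All 6 smooth muscle markers and all 5 red cell markers were lower at every time. The part of these shifts in the values of *Jun*, *Dusp1*, *Nr4a1*, *Atf3*, *Fos* and *Fosb* was not tested.

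Whether the treatment effect changed with time was tested as an interaction in one model of all 18 rats, whose 3 contrasts share their groups. None of the 9 genes passed at FDR below 0.05 in edgeR for Year 1 against Year 0.5, for Year 2 against Year 0.5 or for Year 2 against Year 1, and none did in DESeq2. The count at an unadjusted p below 0.05 was 0 of 9 in each, and the edgeR FDRs ran from 0.544 to 0.957. Over all genes 0%, 1.31% and 0.478% passed at FDR below 0.05 in the 3 contrasts, and 8.49%, 13.8% and 16.5% had an unadjusted p below 0.05. The differences in effect between years were -0.69 to 0.80 on the log2 scale, so the passing of *Atf3* at Year 1 and not at Year 0.5 is not a shown difference between those years.

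Other genes of the same families were read from fixed lists. Of 13 other AP-1 and ATF genes, 2 were higher and 1 lower at Year 0.5, 1 was higher at Year 1, and 3 were higher and 3 lower at Year 2 (edgeR, FDR below 0.05). *Batf*, an AP-1 protein of immune cells, was higher at all times, by a log2 fold change of 1.58, 1.79 and 1.29. *Batf2*, a relative of *Batf*, was lower at Year 2, with a log2 fold change of -1.38. *Egr2* was the only one of 6 other EGR and NR4A genes tested that passed, and it rose at every time, with a log2 fold change of 0.95, 1.97 and 2.18, while *Egr1* did not pass. Of 9 other DUSP genes, 2, 2 and 1 were higher and 2, 2 and 4 lower at the 3 times. *Dusp4* was higher by 1.43, 1.44 and 1.87 and *Dusp14* lower by -0.84, -0.59 and -1.11, so that the phosphatases moved both ways. Of 5 other ZFP36 and IER genes, 1, 2 and 2 were higher and 1, 0 and 1 lower. Among them *Ier5l* was higher at Year 1 and Year 2, by 0.39 and 0.52.

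Of 29 further early response genes tested, 8, 8 and 10 were higher and 6, 7 and 10 lower at Years 0.5, 1 and 2, and their medians were -0.06, -0.06 and 0.01. *Rgs1*, a regulator of G protein signalling in leukocytes, had the largest change of the list at Year 2, with a log2 fold change of 2.88 ± 0.12 (SE), followed by *Klf4* at -1.30, *Gadd45g* at 1.30 and *Klf2* at -1.13. *Klf2* and *Klf4* are factors of quiescent endothelium. Of 18 kinases and transcription factors that act upstream of the early genes, 3, 2 and 4 were higher and 1, 0 and 2 lower, all with a change under 2-fold. *Map2k1*, which encodes the kinase MEK1, was higher by 0.48, 0.45 and 0.59 on the log2 scale. The mRNAs known as targets of tristetraprolin could be tested for 7, 8 and 8 genes, of which 4 were higher at each time and none lower. They were *Ccl2*, *Ccl3*, *Cxcl1* and *Cxcl2*, led by *Ccl2* with a log2 fold change of 3.80, 4.86 and 3.72.

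Genes that can mark handling of the tissue were read beside these results. Of 9 heat shock genes, 2 were higher and 1 lower at Year 0.5, 1 was lower at Year 1, and 4 were higher and 1 lower at Year 2, with *Hspb1* the lower one in each case. Of 8 glucocorticoid-responsive genes, 1, 1 and 3 were higher and 1, 2 and 1 lower at the 3 times. The part of handling in the members' values was not tested.

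The second set of comparisons asked how the genes differed between times within one treatment, and the Year 1 and Year 2 contrasts share the Year 0.5 rats, which also enter the treatment contrast of that year. In the control rats the mean of all 9 genes was lower at Year 1 than at Year 0.5. *Egr1* showed the largest difference, from 156 ± 78.0 CPM (SD, n = 3) at Year 0.5 to 51.6 ± 14.8 CPM at Year 1, and every Year 1 control lay below every Year 0.5 control. Its log2 difference was -1.59 ± 0.33 (SE), with an edgeR FDR of 0.297. *Nr4a1* differed by -1.33, *Fosb* by -1.22, *Fos* by -1.06, *Atf3* by -0.79, *Jun* and *Junb* by -0.60 each, *Dusp1* by -0.40 and *Zfp36* by -0.20 on the log2 scale. No gene of the 14843 tested passed at FDR below 0.05 in edgeR (0% of all genes), and 7 of the 9 were lower at an unadjusted p below 0.05, as were 3.58% of all genes. These 7 are not independent, since the members varied together between rats (median r 0.431). Control Year 0.5 replicate 2 alone stood above its group mean in 8 of the 9. DESeq2 called 2 of the 9 at FDR below 0.05, *Egr1* and *Jun*, both with an FDR of 0.0248, and 21 of all 14843 genes. Glucocorticoid-responsive genes moved in the same contrast, with 6 of 8 higher and 1 lower at an unadjusted p below 0.05 and none at FDR below 0.05 in edgeR, and a median log2 difference of 0.65. Their summed level was 677, 562 and 980 TPM in the Year 0.5 controls and 751, 1560 and 1483 TPM in the Year 1 controls, so the groups overlapped. None of 9 heat shock genes had an unadjusted p below 0.05 there in edgeR. Of 16 clock genes, 7 were higher and 2 lower at that limit. Their summed level was 455, 439 and 514 TPM in the Year 0.5 controls and 479, 640 and 664 TPM in the Year 1 controls. The part of these genes in the members' differences was not tested. Without control Year 0.5 replicate 2 the value of *Egr1* was -1.13, that of *Nr4a1* was -0.70 and that of *Fosb* was -0.50.

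The treated rats, which share the model and its estimate of spread but no sample with that contrast, showed lower means at Year 1 than at Year 0.5 for 8 of the 9 genes. *Egr1* read 200.4, 142 and 93.4 CPM at Year 0.5 and 52.0, 43.6 and 63.4 CPM at Year 1, with no overlap, a log2 difference of -1.46 ± 0.33 (SE) and an edgeR FDR of 0.14. *Fos* differed by -1.21 ± 0.29 (SE) and *Dusp1* by -0.67 ± 0.15, whereas *Atf3* stood at 0.01 ± 0.35. None of the 9 passed at FDR below 0.05 in edgeR (0.101% of all genes did), while 7 of the 9 were lower at an unadjusted p below 0.05, as were 4.54% of all genes. Here too the 7 are not independent, and treated Year 0.5 replicate 1 stood above its group mean in all 9. DESeq2 called *Egr1* (FDR = 0.0305) and *Dusp1* (FDR = 0.00427), and 56 of all 14843 genes at FDR below 0.05. In these rats 0 of 8 glucocorticoid-responsive genes and 0 of 9 heat shock genes had an unadjusted p below 0.05 in edgeR. At that limit 4 of 4 neutrophil and 3 of 9 macrophage markers were higher. Lower were 2 of 6 fibroblast markers and 3 of 16 clock genes. The neutrophil markers *S100a9* and *S100a8* passed in edgeR (FDR = 0.00184 and 0.0134). The part of these lists in the members' differences was not tested. The rats of a year share their age, length of dosing and time of necropsy, which cannot be told apart from one another.

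**Figure D3:**
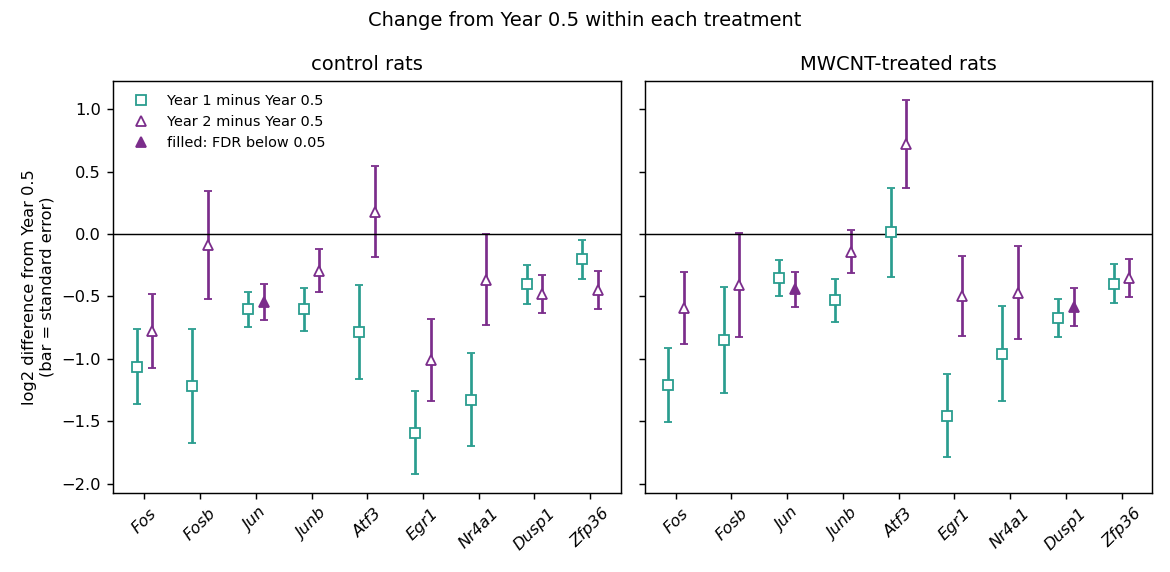
Log2 difference of Year 1 (squares) and Year 2 (triangles) from Year 0.5 within the control rats and within the MWCNT-treated rats, from one edgeR model of 18 rats, with bars for standard errors and filled symbols for an FDR below 0.05. Nearly all points lie below 0, the Year 1 value of *Egr1* reaches -1.59 in control and -1.46 in treated rats, and *Atf3* in the treated rats lies at 0.01 and 0.72.

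At Year 2 the mean levels stood mostly between those of the other times. *Dusp1* and *Zfp36* in the control rats and *Jun* in the treated rats were lowest then, and *Atf3* was highest in both. In the control rats 8 of the 9 genes were lower than at Year 0.5, and 1 passed in edgeR, where 6.65% of all genes did. This was *Jun*, with a log2 difference of -0.54 ± 0.14 (SE) and an FDR of 0.0317, which became 0.114 without control Year 0.5 replicate 2. In the treated rats *Dusp1* was lower by -0.59 ± 0.15 (SE; edgeR, FDR = 0.0175) and *Jun* by -0.44 ± 0.14 (SE; edgeR, FDR = 0.048), where 13.5% of all genes passed. *Jun* missed the threshold in 13 of the 18 fits that left out 1 rat, and *Dusp1* in 4 of 18. Most of these fits left out a rat outside the groups compared. In that contrast of treated rats 6 of 8 endothelial markers and 5 of 7 alveolar type 1 markers were lower and 6 of 9 macrophage markers higher (edgeR, FDR below 0.05), with medians of -0.63, -0.52 and 0.57. Summed endothelial markers were 1526 to 2106 TPM at Year 0.5 and 1007 to 1384 TPM at Year 2, and summed macrophage markers 1141 to 1381 TPM and 1766 to 1993 TPM. Their part in the values of *Dusp1* and *Jun* was not tested. In the control rats, where *Jun* passed, no endothelial marker did, and 2 of 9 heat shock genes and 1 of 8 glucocorticoid-responsive genes were lower. At an unadjusted p below 0.05 in edgeR, 3 of 8 endothelial and 6 of 8 alveolar type 2 markers were lower. So were 4 of 6 fibroblast markers, with 0 higher in these lists. Of 9 macrophage markers 2 were higher and 2 lower, and 5 of 5 red cell markers were higher. Among these, *Npnt*, *Col1a1*, *Slc34a2*, *Lamp3* and *Msr1* (lower) and *Itgax* (higher) passed at FDR below 0.05. The part of these lists in the value of *Jun* was not tested. Among the 9 members *Atf3* was the only gene above its Year 0.5 mean, by 0.18 in the control rats and 0.72 in the treated rats. Neither difference passed (edgeR, FDR = 0.812 and 0.193).

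The members also varied between rats of the same group, and the last comparison asked whether they did so together. Each gene's log2 CPM was taken as its deviation from the mean of its group, and Pearson's r over the 18 rats was computed for all 36 pairs, with a two-sided p from all 46656 exact permutations of rats within groups. The median r was 0.431, from -0.519 for *Atf3* with *Zfp36* to 0.839 for *Fos* with *Egr1*, and 30 of the 36 were above 0. After Benjamini-Hochberg adjustment 6 pairs had a permutation p below 0.05, the lowest r among them being 0.644. Among pairs of all genes tested the median r was -0.000884, 49.9% had r above 0 and 1.95% had r of at least 0.644. Of the 36 member pairs 10 reached 0.644, but this cutoff was taken from the 6 pairs above, which reach it by construction. Leaving out the 2 rats farthest from the median in each pair gave a median r of 0.329.

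The closest set was *Fos*, *Egr1* and *Junb*. *Fos* and *Egr1* had r = 0.839 (exact permutation p = 0.000107, adjusted 0.00386) and Spearman's rho = 0.785 (exact permutation p = 0.0015, adjusted 0.0287), and r was 0.805 without the 2 farthest rats. *Fos* and *Junb* had r = 0.828 (exact permutation p = 0.00182, adjusted 0.0219), with rho = 0.792 (exact permutation p = 0.00302, adjusted 0.0287) and r = 0.782 without the 2 farthest rats. *Junb* and *Egr1* had r = 0.69 (exact permutation p = 0.00682, adjusted 0.0491), with rho = 0.707 (exact permutation p = 0.0057, adjusted 0.0342) and 0.696 without those 2. The pair of brakes, *Dusp1* and *Zfp36*, had r = 0.731 (exact permutation p = 0.000986, adjusted 0.0177), with rho = 0.748 (exact permutation p = 0.00195, adjusted 0.0287) and 0.682 without them. *Jun* went with *Nr4a1* at r = 0.796 (exact permutation p = 0.00658, adjusted 0.0491), with rho = 0.711 (exact permutation p = 0.00431, adjusted 0.031) and 0.738 without them. *Jun* and *Dusp1* had r = 0.644 (exact permutation p = 0.00829, adjusted 0.0498), with rho = 0.725 (exact permutation p = 0.00319, adjusted 0.0287) and 0.718 without them. *Fos* and *Jun* themselves had r = 0.367 (exact permutation p = 0.279, adjusted 0.437).

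For Pearson's r, leaving out each rat in turn kept *Fos* with *Egr1* below the adjusted threshold in all 18 of the fits. *Dusp1* with *Zfp36* stayed below it in 16 and *Fos* with *Junb* in 14. The other 3 of the 6 pairs stayed below it in 3 or 4 of the 18. The number of pairs fell from 6 to 1 without control Year 2 replicate 3 or without treated Year 1 replicate 3, and to 2 without control Year 0.5 replicate 1 or 2. It was 3 without control Year 2 replicate 1 or 2, treated Year 1 replicate 1, or treated Year 2 replicate 2 or 3. For Spearman's rho, no pair had an adjusted p below 0.05 without control Year 2 replicate 3 or treated Year 0.5 replicate 2. The same held without treated Year 1 replicate 1, 2 or 3. Within the 9 control rats the median r was 0.412 and within the 9 treated rats it was 0.549, with r up to 0.906 and 0.946. With 216 permutations the smallest p is 0.00463, so at least 4 pairs would have to reach it before any adjusted p fell below 0.05, and no count of pairs is read from these smaller sets.

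**Figure D4:**
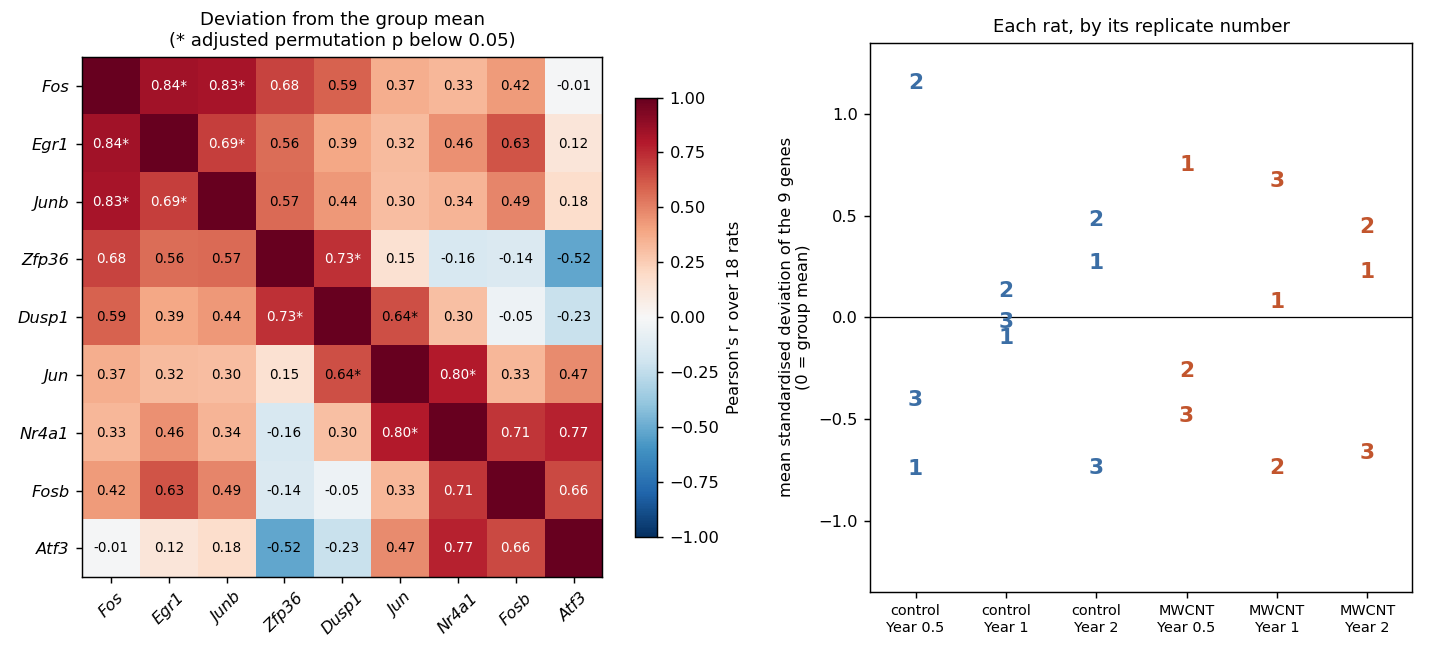
Left, Pearson's r of each pair of genes over 18 rats, computed on deviations of log2 CPM from the group mean, with a star where the adjusted permutation p is below 0.05. Right, the mean standardised deviation of the 9 genes in each rat, drawn as its replicate number for each group (control blue, MWCNT-treated orange), from 1.15 in control Year 0.5 replicate 2 to -0.74 in 3 other rats.

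As a description of single rats, control Year 0.5 replicate 2 stood highest, with 8 of the 9 genes above its group mean, among them *Nr4a1* by 0.96, *Fosb* by 1.04 and *Egr1* by 0.75 on the log2 scale. All 9 were above the group mean in treated Year 0.5 replicate 1, and none was in treated Year 2 replicate 3. The mean deviation of the 9 genes had r = -0.284 with the log2 total count over the 18 rats.

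Of 12474 other genes with a mean count of at least 50, those whose deviations most resembled the mean of the 9 over the 18 rats were *Btg2* (r = 0.953) and *Ccn1* (r = 0.935). Both belong to the list of further early response genes. They were followed by *Vps16* (0.821), *Snf8* (0.8), *NEWGENE_1310561* (0.785), *Ecd* (0.782), *Prkcd* (0.776), *Hdgfl2* (0.773), *Tmem141* (0.767) and *Rtn2* (0.75). *Btg2* was lower after MWCNT at Year 1 and Year 2, by -0.28 and -0.41 on the log2 scale. The mean of the 29 further early response genes had r = 0.805 with the mean of the 9, and that of the heat shock genes -0.0884, of the glucocorticoid-responsive genes -0.147 and of the clock genes -0.0307. Among cell type markers the values ran from -0.424 for alveolar type 2 markers to 0.373 for alveolar type 1 markers. All these values share the same 18 libraries and are descriptions.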

How the data were processed

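Lungs of 18 rats were measured by bulk RNA sequencing (NEBNext Ultra II libraries on a NovaSeq), and the authors mapped and counted the reads in CLC Genomics Workbench. Builds named in the submitters' processing notes are Rnor_6.0 and rn6. The deposited tables hold raw counts per gene and TPM values that the authors scaled by gene length and library size, and 0 columns belonged to samples outside the series. Columns with the authors' own fold changes and p-values were not used.

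Counts were filtered with filterByExpr (minimum count 10), scaled by TMM and tested with edgeR 4.0.16 in R 4.3.3 (quasi-likelihood test, Benjamini-Hochberg over all genes tested). Treatment was tested among the 6 rats of each year, and time and interaction in one model of 18 rats. DESeq2 1.42.0 was run as an alternative, and the edgeR step was tested on simulated data. For the treatment contrasts at Years 0.5, 1 and 2 it found 78.6%, 83% and 73% of simulated 2-fold changes, and 7.94%, 9.09% and 7.65% of its calls were false, above the nominal FDR limit of 0.05. The simulated data held 98 to 100 genes changed by 1 on the log2 scale and 100 changed by 2, among 14221 to 14259 genes. That is a far smaller share than passed in the real data, and both rates depend on it, so they need not hold for the tests reported here. Correlations used log2 CPM with a prior count of 2. All members were named, at most 4 genes of each other list by largest change, and the 10 genes most like the members. Members and lists were chosen with earlier results of these data known. Nothing in the sources says that libraries share an animal. The edgeR p-values rest on the spread between rats within groups, pooled over the groups of a fit. The correlation p-values rest on permuting rats within groups.

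The other lists were AP-1 and ATF genes, EGR and NR4A genes, DUSP genes, ZFP36 and IER genes, further early response genes, upstream kinases and transcription factors, ZFP36 target mRNAs, heat shock, glucocorticoid-responsive and clock genes, and markers of 11 cell types. Alternatives were another scaling, filters on low counts, the fold limit, a replicate block, one fit to every rat and each rat left out.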

Additional observations from a re-analysis of the deposited data

How the results depend on the processing

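Precision was limited by 3 rats a group and by depths from 13297643 counts. Of 342 values recomputed under other settings, 324 kept their direction and side of the threshold, 15 came past it, 1 fell short and 2 changed sign, and of 810 recomputed with 1 rat left out the counts were 761, 13, 23 and 13. The cause of these changes was not tested. Differences between years within a treatment were refitted 18 times each, and most of those fits left out a rat outside the groups compared. Such a fit can shift the FDR but hardly the difference itself, so the count of 761 overstates how steady the values were.

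With an FDR limit alone, 2, 4 and 5 members were called at Years 0.5, 1 and 2, in place of 0, 2 and 2 with the fold limit. The model of all 18 rats called 1 at Year 1. DESeq2 called 1 member between Year 1 and Year 0.5 in control rats and 1 in treated rats, with the fold limit. Of all 14843 genes it called 7 and 18 in these contrasts with that limit. Leaving out 1 rat gave 0 to 1 members at Year 0.5, 1 to 3 at Year 1 and 1 to 2 at Year 2. The count at Year 0.5 was 1 without control replicate 2, control replicate 3 or treated replicate 1. It was 1 at Year 1 without control replicate 2 or treated replicate 1, and 1 at Year 2 without control replicate 1 or 2 or treated replicate 1 or 3. Pairs of members with an adjusted p below 0.05 numbered 1 to 7 by Pearson's r and 0 to 5 by Spearman's rho with 1 rat left out. The count was 0 in control rats and 0 in treated rats alone, where 9 rats give a smallest p of 0.00463 and at least 4 pairs would have to reach it, so these zeros say nothing about co-variation. Leaving out rats for the pairs, and the *Fos*-to-*Jun* ratio, were chosen after seeing the data.

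Scaled by library size alone, the log2 fold change of *Egr1* at Year 1 was -0.0922 and the Year 1 difference of *Atf3* in treated rats was -0.0039. With 1 rat left out, the treatment value ran from -0.0718 to 0.25 for *Junb* and from -0.40 to 0.36 for *Egr1* at Year 0.5, from -0.17 to 0.22 for *Egr1* at Year 1 and from -0.0838 to 0.66 for *Fosb* at Year 2. The Year 2 difference in control rats ran from -0.37 to 0.63 for *Fosb*, from -0.69 to 0.26 for *Nr4a1* and from -0.13 to 0.52 for *Atf3*. In treated rats the Year 1 difference of *Atf3* ran from -0.20 to 0.24 and the Year 2 difference of *Nr4a1* from -0.69 to 0.0022.

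Replicate numbers name separate animals. Over 9 pairs of same-numbered rats the correlation of deviations was -0.147 to 0.107, with 1 over 0.1, so the numbers share only a number. With the replicate block edgeR called 0, 2 and 2 members, as without it. At FDR below 0.05 alone, *Atf3* at Year 0.5 had a value of 0.71 (FDR = 0.0131) and *Zfp36* at Year 1 an FDR of 0.0317 under the block.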

Other observations

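Lists that stand outside the early response moved with treatment as follows (edgeR, FDR below 0.05). All 7 alveolar type 1 markers were lower at Year 0.5 and Year 2 and 6 at Year 1, with a summed level of 5958 to 6981 TPM in control rats and 2709 to 4371 TPM in treated rats. Alveolar type 2 markers were higher for 8, 7 and 8 of 8, with 28150 to 37330 TPM against 52080 to 61940 TPM. Of 6 club and ciliated markers 4, 6 and 5 were lower. Of 6 fibroblast markers 2, 0 and 2 were higher and 3 lower at each time. Of 8 lymphocyte markers 1 was higher at each time and 6, 2 and 5 were lower, and of 4 neutrophil markers 1, 2 and 2 were higher. Heart muscle markers were lower for 7 of 8, 2 of 8 and 1 of 6 tested. Of 16 clock genes 2 were higher at each time and 7, 6 and 9 were lower.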
